A study of Homo sapiens with 2 samples.

Results

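The E2F transcription factors and their DP dimer partners were examined in K562 cells, a human erythroleukemia line, after introduction of a miR-34a mimic. The members were E2F1 to E2F8, TFDP1 and TFDP2, taken by gene symbol in the annotation of the array, and all 10 had at least 1 probe set. Together they had 22 of the 54675 probe sets of the array, and 0 further probe sets were shared between a member and another gene. By nucleofection, which is delivery of nucleic acid by an electric pulse, cells received 3 µg of a miR-34a mimic, a synthetic RNA that acts like the microRNA, or 3 µg of a control mimic. Their RNA, extracted after 24 hours, was hybridised to Affymetrix expression arrays, 1 array per group. There was thus no replicate, no test between groups was possible, and every ratio below compares 1 culture with another. The labels do not name the arm of miR-34a that the mimic stands for.

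E2F proteins bind DNA at the promoters of genes for DNA synthesis and cell division, most of them as heterodimers with a DP protein. E2F1, E2F2 and E2F3 are known as activators that are held inactive by the retinoblastoma protein until cyclin-dependent kinases phosphorylate it, while E2F4 and E2F5 act mainly as repressors together with the related pocket proteins p107 and p130. E2F6 represses without pocket proteins, through polycomb-type complexes, and E2F7 and E2F8 are repressors that bind DNA without a DP partner. TFDP1 and TFDP2 encode the DP partners DP1 and DP2. In erythroid cells this circuit is tied to exit from the cell cycle during maturation. miR-34a is a microRNA induced by p53 that lowers many mRNAs of the G1 phase machinery, and E2F3 is among the mRNAs described as its targets.

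A microRNA recognises mRNAs mainly through its seed, bases 2 to 8. The mature 5p strand of miR-34a is shown with other mature human microRNAs that carry the same seed, since these share its predicted targets. They are the ones held in the RefSeq table used here, which may lack others with this seed. The seed is in capitals. miR-34a-5p lies at chr1:9151735-9151756 (GRCh38.p14, minus strand), miR-449a at chr5:55170586-55170607 and miR-449b-5p at chr5:55170706-55170727, both also on the minus strand.
hsa-miR-34a-5p: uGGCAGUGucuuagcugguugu
hsa-miR-449a: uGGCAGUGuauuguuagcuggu
hsa-miR-449b-5p: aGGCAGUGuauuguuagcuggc

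E2F genes are known to be regulated by E2F themselves, so the promoters of the activating members are shown as well. Each window runs from 250 bases before to 50 bases after a RefSeq start site and is written in the direction of the gene. Capitals mark matches to the E2F motif, searched on both strands in the spellings TTTCCCG as well as TTTCGCG, then also TTTGCCG as well as TTTGGCG. The E2F1 window is chr20:33686336-33686635 (GRCh38.p14, minus strand), the E2F2 window chr1:23531184-23531483 (minus strand), and the E2F3 window, the upstream of its 2 windows in the table, chr6:20401629-20401928 (plus strand).
E2F1: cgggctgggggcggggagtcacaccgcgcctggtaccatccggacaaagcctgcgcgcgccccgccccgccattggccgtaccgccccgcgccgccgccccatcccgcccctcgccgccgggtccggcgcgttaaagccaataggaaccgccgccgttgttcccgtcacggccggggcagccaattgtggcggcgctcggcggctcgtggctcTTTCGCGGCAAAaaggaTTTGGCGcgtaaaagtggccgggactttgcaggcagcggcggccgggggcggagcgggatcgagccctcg
E2F2: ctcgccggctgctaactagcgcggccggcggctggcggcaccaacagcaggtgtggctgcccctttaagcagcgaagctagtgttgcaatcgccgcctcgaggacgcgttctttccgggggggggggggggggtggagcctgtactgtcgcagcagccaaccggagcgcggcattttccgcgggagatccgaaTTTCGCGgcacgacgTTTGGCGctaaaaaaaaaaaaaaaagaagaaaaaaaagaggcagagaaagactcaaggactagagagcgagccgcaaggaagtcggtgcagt
E2F3: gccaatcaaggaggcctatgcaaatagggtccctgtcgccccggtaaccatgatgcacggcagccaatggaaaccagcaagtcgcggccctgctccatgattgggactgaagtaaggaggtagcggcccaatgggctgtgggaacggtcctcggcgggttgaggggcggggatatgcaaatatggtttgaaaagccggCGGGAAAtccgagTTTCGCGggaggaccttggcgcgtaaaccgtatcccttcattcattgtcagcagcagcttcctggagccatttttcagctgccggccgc

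The 3 windows resembled each other in where the motif lay. In E2F1 the matches began 37, 32 and 20 bases before the start site, and the first of them overlapped the second on opposite strands. In E2F2 they began 57 and 42 bases before the start site, and in E2F3 52 and 39. Of the 8 members with a window in the table, 6 had a match in at least 1 window, namely E2F1, E2F2, E2F3, E2F6, TFDP1 and TFDP2. The E2F3 window that is not printed had no match. In TFDP2 the match lay after the start site, at base 20, and its other windows had no match. E2F4 and E2F7 had none, and E2F5 and E2F8 were not searched. Over all 27305 genes with a window, 10.4% had a match, and over all 35116 windows 8.67% did. A match is a description of the letters and does not show that a factor was bound.

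The values are probe set signals in arbitrary units, as the authors deposited them. The log2 ratio is log2(signal + 14.9) with the miR-34a mimic less the same with the control mimic, centred on the median of expressed genes. A probe set counted as expressed when its mean level reached the median of the array, and a gene took its brightest expressed probe set. Signals that do not exceed 75.4 are called within background; this limit is the brightest of 27 dim probe sets against bacterial RNA. The spread between expressed probe sets of the same gene, pooled over 5494 genes, was an SD of 0.24 on the log2 scale. It covers probe set differences and not differences between cultures. Probe sets differ in how strongly they bind their RNA, so signals give no order of level between genes. For each member the range holding the central 95% of the 1000 probe sets nearest in level is used as a yardstick, which includes real changes.

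The arrays were close in scale, with median signals of 39.5 and 40.1. Of 18 probe sets for spiked-in RNA the mean log2 ratio was 0.014 ± 0.069 (SD over probe sets). The 3′ to 5′ signal ratio of GAPDH, which grows with RNA degradation, was 3.07 with the control mimic and 3.53 with miR-34a. That of ACTB was 4.30 and 4.54. Signal was thus stronger toward the 3′ end on both arrays, and the part of this in differences between probe sets of a gene was not tested. The erythroid identity of the cells was visible on both arrays. GATA1 read 1187 and 1395 and the embryonic globin gene HBE1 10516 and 11843 on the control and miR-34a arrays, and all 9 identity markers that could be read singly were expressed. Of these 9, 8 were higher with miR-34a, while 50.0% of all expressed genes were below 0. The summed signal of the 9 was 28115 and 33592, in which HBZ alone read 4258 and 7672. Probe sets shared by the globin genes HBG1 and HBG2, also on the marker list, gave log2 ratios of -0.0445, -0.0067 and -0.04. Of 5 lymphoid markers CD3E and CD8A were under the filter, MS4A1 and CD4 within background, and CD79A read 330 and 342, with a summed signal of 426 and 461 over the 3 expressed. Of 6 myeloid markers CD14, MPO, ELANE and ITGAM were under the filter, CSF1R read 77.8 and 69.5, and LYZ 518 and 563, with a sum of 595 and 632. Of the epithelial and stromal markers KRT5 and CDH1 read at most 3.78, while EPCAM read 1426 and 654, COL1A2 370.0 and 192, COL1A1 121 and 119 and VWF 119.9 and 127, with a sum of 2037 and 1091. The part of any of these in the results on E2F genes was not tested. In RNA from a whole culture, fewer cells in a phase of the cell cycle and less RNA per cell cannot be told apart.

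Of the 10 members, 9 were expressed, and on their brightest probe sets 7 were lower and 2 higher with the miR-34a mimic. E2F2 and E2F3 were the lowest, E2F1, E2F6, E2F7 and TFDP1 lay close to 0, and TFDP2 was the highest but was read differently by its probe sets. In no member did the gene value reach 1.5-fold in either direction. Over all 12774 expressed genes 3.01% were at least 1.5-fold lower and 3.28% at least 1.5-fold higher, and 50.0% were below 0, as the centring sets. The median over the 9 expressed members was -0.067. All 17 expressed probe sets of the members lay inside the central 95% of probe sets of like level.

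**Figure D1:**
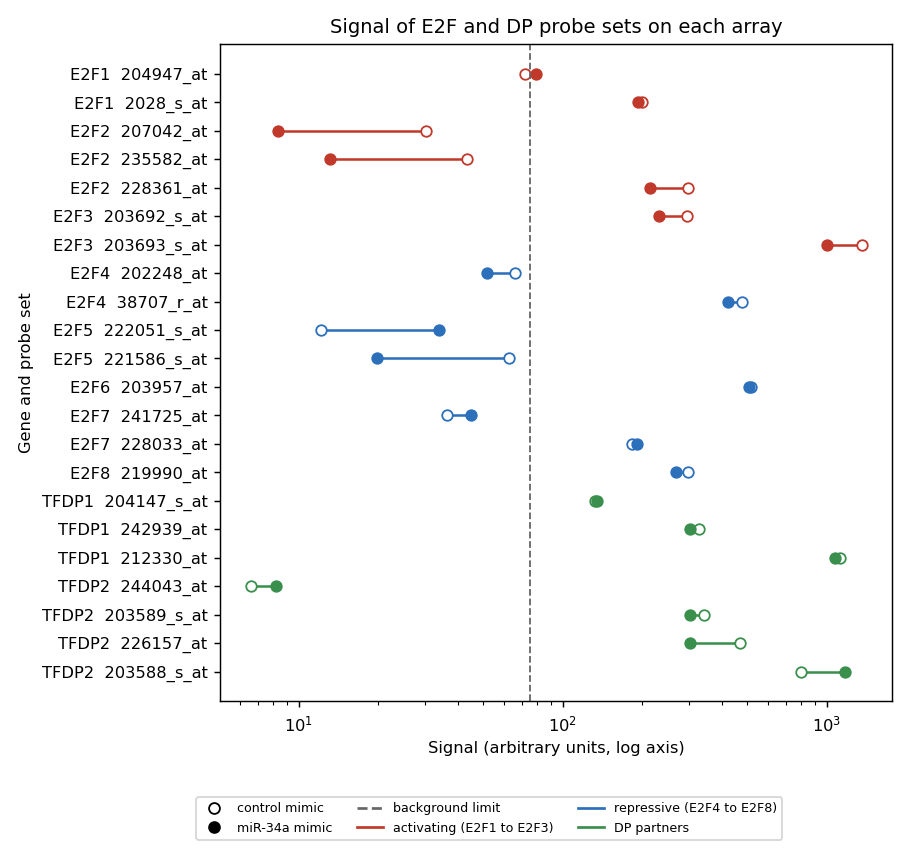
Signal of the 22 probe sets of the members on a log axis, in arbitrary units; open circles are the control mimic array, filled circles the miR-34a mimic array, and the dashed line is the background limit of 75.4. Both E2F3 probe sets and the brightest E2F2 probe set read lower with miR-34a, both E2F5 probe sets lie left of the line, and TFDP2 has bars in opposite directions.

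Among the activating members, E2F3 was read by 2 probe sets that gave similar values. The brighter, 203693_s_at, read 1356 with the control mimic and 1002 with the miR-34a mimic, and the other, 203692_s_at, read 295 and 231. Both signals were lower with miR-34a, well above background on both arrays. The log2 ratios were -0.44 and -0.34, which gave an SD of 0.068 over probe sets, against 0.24 for genes in general. A lower ratio than that of E2F3 was held by 6.29% of expressed genes. E2F3 makes long and short forms of its protein from separate promoters, and the annotation used here does not say which form each probe set reads.

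E2F2, an activator closely related to E2F1 and E2F3, had the lowest gene value of the family. Its probe set 228361_at read 299 with the control mimic and 213 with miR-34a, a log2 ratio of -0.47, and 5.46% of expressed genes lay lower. The remaining E2F2 probe sets were dim. 235582_at read 43.5 and 13.1, and 207042_at read 30.4 and 8.34. All 4 of these signals were within background, so no size is read from them, although each was lower on the miR-34a array.

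E2F1, the best-known activator, also linked to apoptosis, gave no shared direction. 2028_s_at read 199.9 and 193, a log2 ratio of -0.058, and 204947_at read 72.1 and 78.9, a log2 ratio of 0.099. The control signal of the latter lay within background. The pair of ratios had an SD of 0.11, below the general spread between probe sets. E2F1 thus stood apart from E2F2 and E2F3 in value, by an amount that was not tested. All 3 genes hold the E2F motif close before the start site in the windows printed above.

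Among the repressive members the values were small. E2F4, the main E2F of resting and differentiating cells, read 478 and 420.2 on 38707_r_at, a log2 ratio of -0.19. Its other probe set, 202248_at, read 66.1 and 51.5, within background on both arrays, with a ratio of -0.30. Both ratios were below 0, but no direction is read from the second, whose signals were within background. The suffix r marks a probe set for which the usual rules of probe choice were relaxed.

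E2F5, the close relative of E2F4, was not measurable. 221586_s_at read 62.6 with the control mimic and 19.8 with miR-34a, and 222051_s_at read 12.2 and 34.1. All 4 signals were within background, and the probe sets went opposite ways, with log2 ratios of -1.17 and 0.85. No change of E2F5 is read from these values, and it is left out of the medians below.

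E2F6, the repressor independent of pocket proteins, had a single probe set, 203957_at, at 514 and 505.0, a log2 ratio of -0.034. E2F7 and E2F8 are the atypical repressors that are themselves switched on by E2F at the G1/S transition. E2F7 read 183 and 191 on 228033_at, a log2 ratio of 0.048, and 36.4 and 44.9 on 241725_at, within background, a ratio of 0.21. E2F8 had 1 probe set, 219990_at, at 299 and 268, a ratio of -0.16. The values of E2F7 and E2F8 therefore had opposite signs, each smaller than the spread between probe sets of a gene.

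TFDP1, the more widely expressed DP partner, stayed close to 0 on its 3 probe sets. 212330_at read 1119 and 1074, 242939_at read 327 and 302, and 204147_s_at read 133 and 134. The log2 ratios were -0.067, -0.12 and 0.0030, with an SD of 0.060.

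TFDP2 was the member whose probe sets disagreed most. 203588_s_at, the brightest, read 801 with the control mimic and 1169 with miR-34a, a log2 ratio of 0.53. 226157_at read 467 and 304, a ratio of -0.60, and 203589_s_at read 342 and 304, a ratio of -0.17. All 6 signals were above background. The fourth probe set, 244043_at, read 6.59 and 8.22, within background. The sign of TFDP2 therefore depends on the probe set: its gene value was 0.53 by the brightest, -0.076 as the mean of expressed probe sets and -0.60 with the _s_at, _x_at and _a_at classes left out. These suffixes mark probe sets whose probes match more than 1 transcript or sequence. The table of RefSeq genes lists 27 transcripts for TFDP2, and which of them each probe set reads is not given in the sources used here.

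The distance between the lowest and the highest ratio of TFDP2 was 1.13. Of 4097 genes with 2 or more probe sets above background on at least 1 array, 47 had a distance at least as large, or 1.15%, and 9, or 0.22%, had probe sets at 0.5 or beyond in both directions. TFDP2 was singled out here after its values were seen, and the distance grows with the number of probe sets. Signs differed in 38.8% of those 4097 genes, and among the 4 members with 2 or more such probe sets they differed in E2F1, TFDP1 and TFDP2. In E2F1 and TFDP1 the distances, 0.16 and 0.12, were smaller than the spread between probe sets of a gene.

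**Figure D2:**
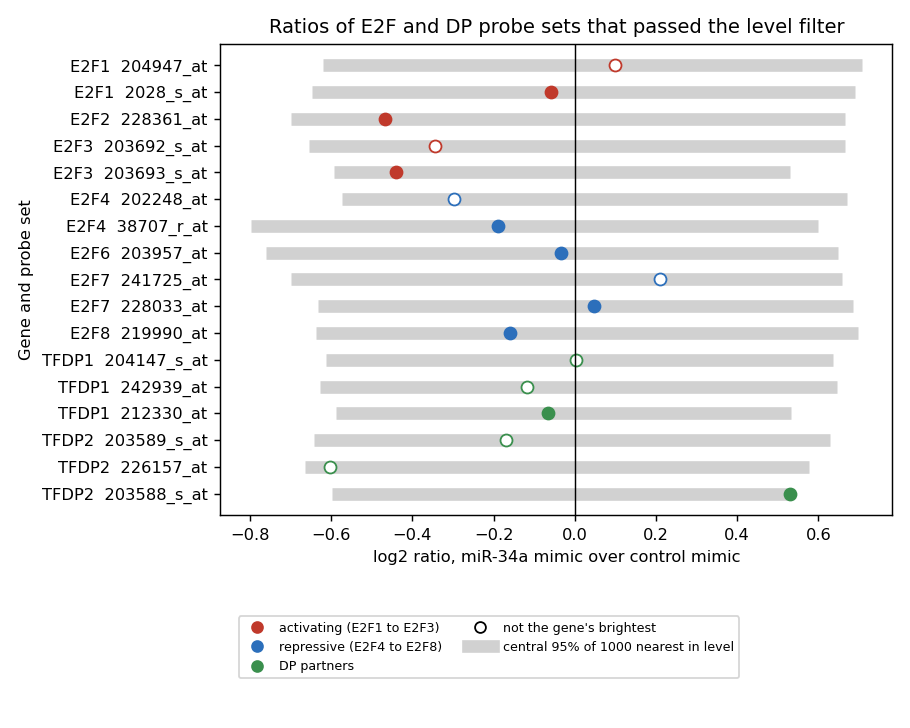
Log2 ratio of miR-34a mimic over control mimic for the 17 expressed probe sets of the members; filled points are the probe set taken for the gene, open points its other probe sets, and grey bars the central 95% of the 1000 probe sets nearest in level. Every point lies inside its bar, E2F2 and E2F3 sit between -0.34 and -0.47, and TFDP2 spans -0.60 to 0.53.

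The members were then compared by their role. The median log2 ratio was -0.44 over the 3 activating members, -0.097 over the 4 expressed repressive members and 0.23 over the DP partners. The groups overlapped: E2F1 at -0.058 lay within the range of the repressive members, which ran from -0.19 for E2F4 to 0.048 for E2F7. With E2F5 counted on its brightest probe set, although within background, the repressive median was -0.16. The DP median rests on TFDP2 and was -0.065 with the probe sets of each gene averaged. The activating median was -0.18 without the _s_at, _x_at and _a_at classes, which remove E2F3 and leave E2F1 on its dimmer probe set. With 3, 4 and 2 genes and 1 array a group, the difference between the roles was not tested.

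Counted by probe set, 15 were above background on 1 array or both, of which 11 were lower and 4 higher with miR-34a. Over all 16833 such probe sets of the array 52.0% were lower. By role, 4 of 5 were lower among the activating members, 3 of 4 among the repressive members and 4 of 6 among the DP partners. A ratio of at least 1.5-fold was held by 1 of the 15, 226157_at of TFDP2, in the downward direction, and by 0 in the upward direction. Of all such probe sets 3.62% were at least 1.5-fold lower and 3.36% at least 1.5-fold higher.

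**Figure D3:**
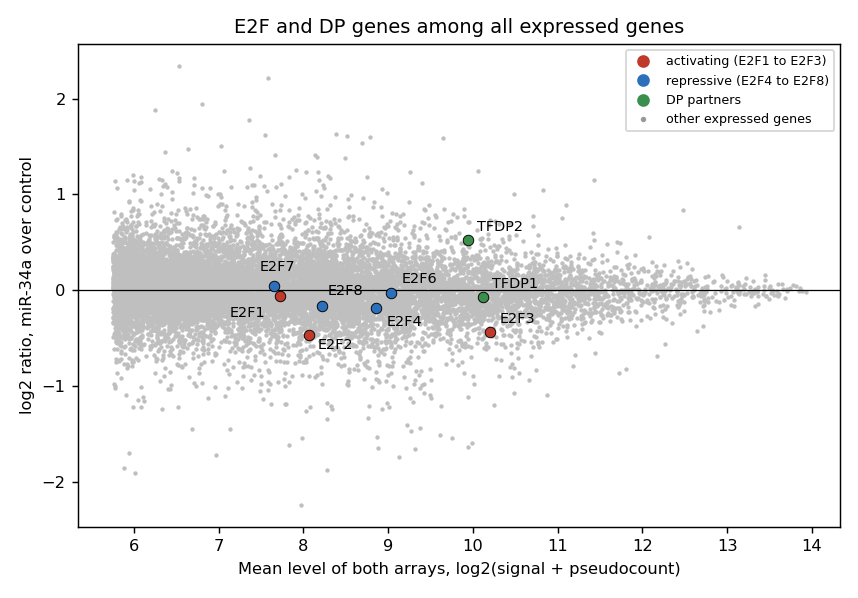
Log2 ratio against mean level, log2(signal + 14.9), for the 12774 expressed genes in grey and the 9 expressed members in colour by role. E2F2 at -0.47 and E2F3 at -0.44 lie below the line and TFDP2 at 0.53 above it, all within the grey cloud.

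The partners through which E2F factors are held inactive came next, as a list of pocket proteins and MuvB subunits. MuvB is the core that joins E2F4 and p107 or p130 in the repressive DREAM complex and later joins B-MYB to activate genes of mitosis. All 9 listed genes were expressed, 6 higher and 3 lower, with a median log2 ratio of 0.22, against 0 for all expressed genes. This median rests on taking the brightest probe set of a gene: it was 0.0045 with expressed probe sets averaged, 5 genes higher and 4 lower, and 0.14 over the 8 genes above background on both arrays. The pocket protein genes RB1, RBL1 (p107) and RBL2 (p130) had 0.26, 0.25 and 0.28. RB1 read 269.5 and 327, RBL1 92.7 and 114, and RBL2 279.6 and 346, so all 3 were higher with miR-34a on these probe sets. The second expressed probe set of RBL1 gave -0.44, so the direction of RBL1 is not settled. That of RBL2 gave 0.024, so it did not share the size.

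Among the MuvB subunits LIN37 had 0.30, LIN54 0.22, LIN9 0.042, LIN52 -0.033 and the histone-binding subunit RBBP4 -0.19, the last with a range of -0.49 to 0.054 over 6 probe sets. The control signal of LIN37, 71.1, lay within background. MYBL2, the gene of B-MYB and a well-known E2F target, had the lowest value of the list, from 1190 to 709 on its single probe set, a ratio of -0.74. It was the only gene of this list past 1.5-fold.

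The list of G1 cyclins, kinases and inhibitors, which act upstream of the pocket proteins, had 12 of 16 genes expressed. Of these 8 were lower and 4 higher, while 50.0% of all expressed genes were below 0. The list had a median of -0.12, or -0.20 with expressed probe sets averaged. The kinase genes CDK6 and CDK4, reported targets of miR-34a, were at -1.64 and -1.59. They were its only members past 1.5-fold on their brightest probe sets. CDK4 had a single probe set, while the 5 expressed probe sets of CDK6 ran from -1.70 to -0.088. Both were also past 2-fold, as were 0.548% of expressed genes in that direction and 0.595% in the other. CDC25A, the phosphatase that frees CDK2 and an E2F target, read 1143 and 763, a ratio of -0.58 with 3 probe sets between -0.66 and -0.58. Its brightest probe set, at -0.5841, fell just short of 1.5-fold, which is 0.585 in log2 size. Its lowest probe set was past 1.5-fold. CCNE2 had -0.32, CCNE1 -0.26, CDK2 -0.14 and CCND2 -0.11, while CCND1 had 0.51 and CCND3 0.24. A second expressed probe set of CCND2 gave -0.61, past 1.5-fold, and that of CCND1 gave 0.25. The inhibitor genes CDKN1A, CDKN1B and CDKN1C had 0.13, 0.034 and -0.025. CDKN2A, CDKN2B and CDKN2D were under the filter, and CDKN2C was not analysed here.

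The 3 listed factors that degrade E2F proteins were slightly lower on their brightest probe sets, while 50.0% of all expressed genes were below 0. Whether so short a list differs from that share was not tested. SKP2 and CCNF, F-box proteins that target E2F1 among others, had -0.23 and -0.18, and FZR1, an activator of the ubiquitin ligase APC/C, had -0.25. The 4 probe sets of FZR1 ran from -0.25 to 0.29, so its sign is not settled, and with probe sets averaged 2 of the 3 genes were lower. No member of the list was past 1.5-fold.

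The partners of E2F6 in its repressor complex had a median close to 0 on their brightest probe sets. Of 10 expressed genes 6 were lower and 4 higher, while 50.0% of all expressed genes were below 0. Their median was -0.020, with 0 past 1.5-fold. With expressed probe sets averaged 5 were lower and 5 higher at a median of 0.0058, and over the 6 genes with a value outside the _s_at, _x_at and _a_at classes the median was -0.17. MGA, the scaffold of the complex, was the lowest at -0.33, with its 3 expressed probe sets between -0.44 and -0.31. PCGF6 had -0.15, CBX3 -0.098, EHMT2 -0.079, L3MBTL2 -0.033 and MAX -0.0067. RING1 had 0.0028, RYBP 0.018, EHMT1 0.19 and YAF2 0.24. E2F6 itself, at -0.034, lay among them. Expressed probe sets of 1 partner could differ, from -0.27 to 0.31 for RYBP and from -0.23 to 0.19 for EHMT1. Those of L3MBTL2 ran from -0.033 to 0.11, those of MAX from -0.0067 to 0.083 and those of EHMT2 from -0.079 to 0.006. The signs of RYBP, EHMT1, L3MBTL2, MAX and EHMT2 are thus not settled. The probe sets of CBX3 ran from -0.42 to -0.077. RNF2 was not analysed here.

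Genes known as targets of E2F at the G1/S transition were lower more often than higher. Of 37 expressed genes 28 were lower and 9 higher, with a median of -0.17, 6 at least 1.5-fold lower and 0 at least 1.5-fold higher. Over all expressed genes 50.0% were below 0, 3.01% at least 1.5-fold lower and 3.28% at least 1.5-fold higher. In the G1/S list the order was as follows. The lowest were MCM3, a subunit of the replicative helicase, from 1828 to 792 at -1.20, the uracil-DNA glycosylase gene UNG, from 605 to 329 at -0.86, and GMNN, the gene of the licensing inhibitor geminin, from 2265 to 1270.3 at -0.84. Each of the 3 was read by a single probe set. The highest were CLSPN, a checkpoint adaptor, at 0.54 from a control signal of 60.1 within background, the polymerase subunit gene POLA2 at 0.18 and the ribonucleotide reductase gene RRM2 at 0.10. Further probe sets of CLSPN and POLA2 went down to -0.082 and -0.018. Of the 3194 brightest expressed genes of the array 56.0% were lower, and the part of signal level in the list's count was not tested.

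The promoter motif was counted in the same genes. Of 34 G1/S targets with a window, 23 had a match, and these had a median log2 ratio of -0.18 with 19 lower. The 11 without a match had -0.034 with 7 lower. Over all expressed genes with a window the medians were -0.0096 for 1619 genes with a match and -0.0013 for 8654 without. The motif in this window thus came with almost the same median over the array. The 6 members with a match ran from -0.47 for E2F2 to 0.53 for TFDP2.

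The genes of G2 and mitosis that MuvB complexes control, first silenced through E2F4 and later activated with B-MYB and FOXM1, were lower throughout on their brightest probe sets, 20 of 20. Over all expressed genes 50.0% were below 0, and of the 3194 brightest 56.0% were lower. The part of signal level in the count of this list was not tested. Its median was -0.19, and 1 gene was past 1.5-fold, while 3.01% of expressed genes were at least 1.5-fold lower. The gene past 1.5-fold was FOXM1 itself, from 319 to 189.9 at -0.71. Next came the anaphase activator gene CDC20 at -0.53 and the kinase gene AURKB at -0.49. AURKB had a second expressed probe set at 0.22, so its sign is not settled. The highest were CCNB2 at -0.052, CDC25C at -0.056 and NUSAP1 at -0.093. With the expressed probe sets of a gene averaged 17 of 20 were lower. The 3 that turned, named here after their values were seen, were CCNB2, CDC25C and KIF23, whose second probe sets gave 0.32, 0.20 and 0.28. The E2F motif was in the promoter window of 1 of 15 genes of this list, or 6.67%, against 10.4% of all genes with a window.

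Among genes through which E2F1 is known to promote apoptosis, 5 were expressed, 4 higher and 1 lower. Over all expressed genes 50.0% were below 0, and whether this small list differs from that share was not tested. The list median was 0.12, which is the value of TP73, within background on both arrays. Over the 4 genes above background on both arrays 3 were higher, with a median of 0.33. The stress kinase gene MAP3K5 read 164 and 287, a ratio of 0.74, with 0.62 on its other probe set. APAF1, the core of the apoptosome, had 0.52, with 0.062 on its other expressed probe set. HRK had 0.11, and PMAIP1 had -0.18, with 0.29 on a second probe set. BBC3 was not analysed here.

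**Figure D4:**
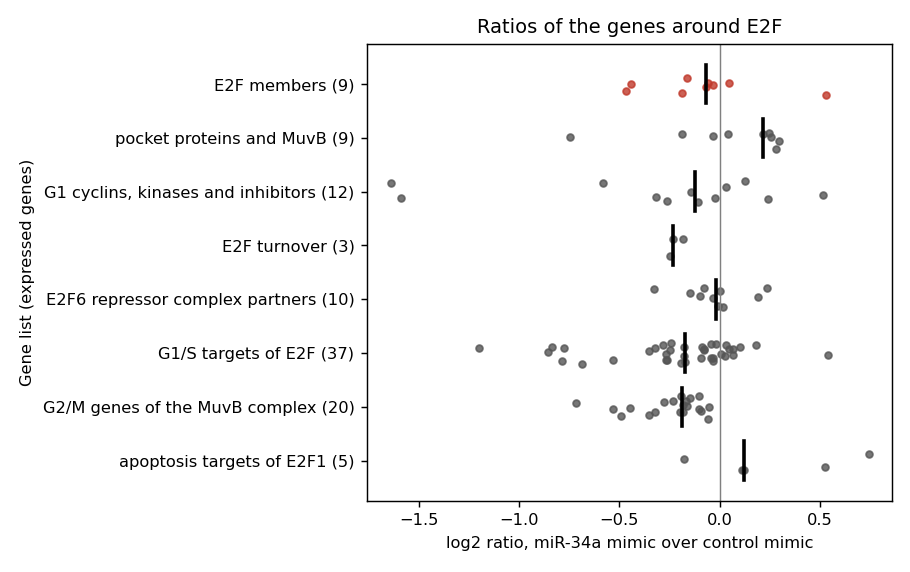
Log2 ratio of miR-34a mimic over control mimic for each expressed gene of the members and of 7 lists around them; each point is a gene on its brightest probe set, its height within a list is arbitrary, black bars are list medians, and the number of genes is in parentheses. CDK6 and CDK4 lie farthest left, all 20 G2/M genes are left of 0, and 6 of 9 pocket protein and MuvB genes are right of it.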

How the data were processed

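Signals of Affymetrix probe sets were deposited by the authors as intensity values on a linear scale, 1 column per array, with a floor of 1 held by 3.59% and 3.54% of probe sets. The cRNA carried biotin and came from 15 µg total RNA, per the labels' protocols. How the signals were summarised, background-corrected and scaled is "not given in the sources used here"; such steps weigh most on dim probe sets. The number of arrays limits the precision.

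From these, log2(intensity + 14.9) was computed (the 25th percentile of all values), and ratios were centred by 0.0090. The filter corresponds to a signal of 39.0. Genes came from probe sets with 1 symbol (41091; 1801 had several, 11721 none), and all 10 members matched the RefSeq gene table. Probe sets are not placed on a genome. Sequences are RefSeq's (GRCh38.p14). The members and lists were chosen with earlier results of these data known. Named were all members, all genes of lists of up to 16, and the 3 lowest and highest above background of longer lists. No gene was named by likeness of pattern, which 2 arrays cannot give. The calculation was tested on simulated data. Python 3.11.15, NumPy 2.4.6, pandas 2.3.3, statsmodels 0.14.6 and matplotlib 3.10.9 were used.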

Additional observations from a re-analysis of the deposited data

How the results depend on the processing

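Alternatives changed the pseudocount, the centring, the filter, normalization between arrays (by quantiles, or by loess, span 0.3), the probe sets of a gene and the fold. E2F2, E2F3, E2F4, E2F6, E2F7, E2F8 and TFDP1 kept their sign in every alternative that gave them a value, between -0.49 and -0.40 for E2F2 and between -0.45 and -0.39 for E2F3, which had no value without the _s_at, _x_at and _a_at classes. E2F1 turned to 0.026 with probe sets averaged and to 0.10 without those classes. TFDP2 turned as given above, and with it the DP median, to -0.065 and -0.33. Without those classes the activating median was -0.18 and that of E2F turnover 0.061, with 1 gene lower. There fewer genes of the longer lists had a value, and signs moved too: 17 of 25 G1/S and 12 of 14 G2/M genes were lower, against 28 of 37 and 20 of 20. Of the apoptosis genes 0 were lower without those classes, and likewise with probe sets averaged. Genes at least 2-fold lower and higher numbered 70 and 76. They numbered 206 and 215 without a filter, 41 and 28 with 4 times the pseudocount, 384 and 419 at 1.5-fold, and 41 were higher with both arrays above background. Ratios of the dim E2F2 and E2F5 probe sets moved with the pseudocount, from -0.63 to -1.50 for 221586_s_at of E2F5. No paired analysis was possible because each group had 1 array. Signals near background limit E2F5 most.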

Other observations

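TFDP3, a DP relative known as an antigen of testis and tumours and not among the members above, had 1 probe set above background, at 170 with the control mimic and 162 with the miR-34a mimic, a log2 ratio of -0.068. This was close to the value of TFDP1, -0.067. Whether the probe set also reads the related TFDP1 mRNA was not tested. It was looked at after its values were seen.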
